A study of Mus musculus with 24 samples.

Results

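Nerve roots join the spinal cord to the periphery, and the difference in gene expression between afferent nerve fibres (AN, of the dorsal root) and efferent nerve fibres (EN, of the ventral root) was compared between mice aged 5 weeks (5W) and newborn mice (P0). The comparison used the 12 arrays labelled P0 and 5W of the 24 arrays in the series, with 3 arrays in each of the 4 groups P0 AN, P0 EN, 5W AN and 5W EN. All mice were of the C57BL/6 strain, and the labels give no transgene, mutation, drug or injury in any group. Total RNA came from fibres arising from the L4-L6 segments, and 1 sample labelled with Cyanine-3 was hybridised to each array. The methods state 9 animals for each stage, whose fibres were collected separately into 8 tubes that matched the groups of stage and root, and 3 independent experiments per group. Neither the methods nor the labels tie an array to animals, so p-values measure the spread between these arrays, which may be technical. Of 56605 gene probes, the 34859 that the scanner marked as well above background on every array of 1 or more of the 4 groups were tested. They stood for 15120 of the 19495 named genes on the array, with the brightest tested probe taken for each gene.

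Schwann cells are the glia of peripheral nerve. Some immature Schwann cells come to wrap single large axons and turn into myelinating cells, which build the myelin sheath after birth. Other Schwann cells enclose several small axons without myelin. The dorsal root carries sensory axons from the dorsal root ganglion to the cord, and the ventral root carries motor axons outwards. Both roots also hold fibroblasts, blood vessels and macrophages, and where a root meets the cord, astrocytes and oligodendrocytes replace Schwann cells. In RNA from whole tissue, fewer cells of a type and less RNA per cell cannot be told apart.

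All values are log2 signal after the quantile normalization applied by the authors, and "AN minus EN" is the difference between 2 arrays of the same stage and replicate number. The change is AN minus EN at 5W minus AN minus EN at P0, so that a change of 1 is a 2-fold shift of the ratio between the roots. A larger or smaller difference means a higher or lower signed value of AN minus EN at 5W, whatever its size. A positive change can come from a rise in AN, from a fall in EN or from both, and the levels in each root are given for that reason. Rises and falls of the level within a root are differences between group means, given as a description with no test. A probe was called when limma gave a Benjamini-Hochberg adjusted p below 0.05 over all tested probes and the change was over 1 in size.

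Median signals ran from 45.4 on the dimmest array to 191 on the brightest, local backgrounds from 24 to 46, and 55.1% to 71.3% of gene probes were well above background. Genes of peripheral myelin were bright in every group. Pmp22, a structural protein of peripheral myelin, read 17.10 to 18.58 on all 12 arrays. Markers of motor neurons did not agree on the roots at 5W. Chat, an enzyme of acetylcholine synthesis, was higher in AN in all 3 pairs of 5W, by 0.91, 0.34 and 0.60, against the labels. Slc18a3, a vesicular transporter of acetylcholine, was lower in AN in all 3, by -0.66, -0.63 and -1.06. Genes of sensory neurons were high in both roots at P0 and in 2 of the 3 arrays of 5W AN. On the array labelled 5W AN replicate 3 they were not. Calca, the precursor of a sensory neuropeptide, read 13.66, 12.33 and 8.64 in 5W AN and 9.21, 9.94 and 10.41 in 5W EN. Avil, which encodes advillin of sensory neurons, read 11.52, 9.94 and 7.80 in 5W AN and 8.14, 7.86 and 8.53 in 5W EN. Replicate 3 of 5W AN therefore lay below its paired EN array in both genes, against its label, although it sat with the other AN arrays for many genes given here.

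Between P0 and 5W, the difference between the roots changed for 598 probes, which is 1.72% of those tested. AN minus EN was larger at 5W for 385 probes (1.10%) and smaller for 213 (0.611%). By gene, 204 of 15120 were called with a larger difference (1.35%) and 112 with a smaller one (0.741%). The median change over all genes was -0.0099. Among the 385 probes with a larger difference, the median AN minus EN went from -0.16 at P0 to 1.31 at 5W. Signal in EN had fallen by over 1 in 198 and risen by over 1 in 77. Signal in AN had risen by over 1 in 148 and fallen by over 1 in 82. Among the 213 with a smaller difference, the median went from 0.29 to -0.99, and signal in EN had risen by over 1 in 125 and fallen by over 1 in 28. Signal in AN had risen by over 1 in 78 and fallen by over 1 in 60. Of all 34859 tested probes, EN had fallen by over 1 in 5572 and risen in 5624. In AN the signal had fallen by over 1 in 5078 and risen in 5612. The roots differed little at P0 for many of these probes: 219 of the 385 had a difference under 1 in size at P0 and over 1 at 5W, and 104 of the 213 likewise. In 155 of the 385 and 117 of the 213, the 3 pairs at P0 had the opposite sign to the 3 pairs at 5W. Of all 34859 tested probes, 2215 went from under 1 in size to over 1, and 2636 had opposite signs in all pairs. The called probes were selected on these same pairs, so these counts add no further evidence.

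The count rests on few pairs. Without the pair labelled 5W replicate 3, 838 probes were called, 614 of them larger and 224 smaller. Without 5W replicate 1 the count was 20, and without 5W replicate 2 or any single P0 replicate it was 0, with 1546 to 2336 probes past an unadjusted p below 0.05 and a 2-fold change in these 6 fits. The pairs were also spread unevenly over slides. Slide 3 alone held pairs of both stages, and with the slide as a block no probe was called after adjustment while 3301 passed unadjusted. All 598 changes kept their sign in each of these fits. That was fixed in advance and adds no support, since in all 385 and all 213 probes the pairs of the 2 stages did not overlap. Of all tested probes, 33.7% had no such overlap. The part of the slide in the result was not tested further.

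**Figure D1:**
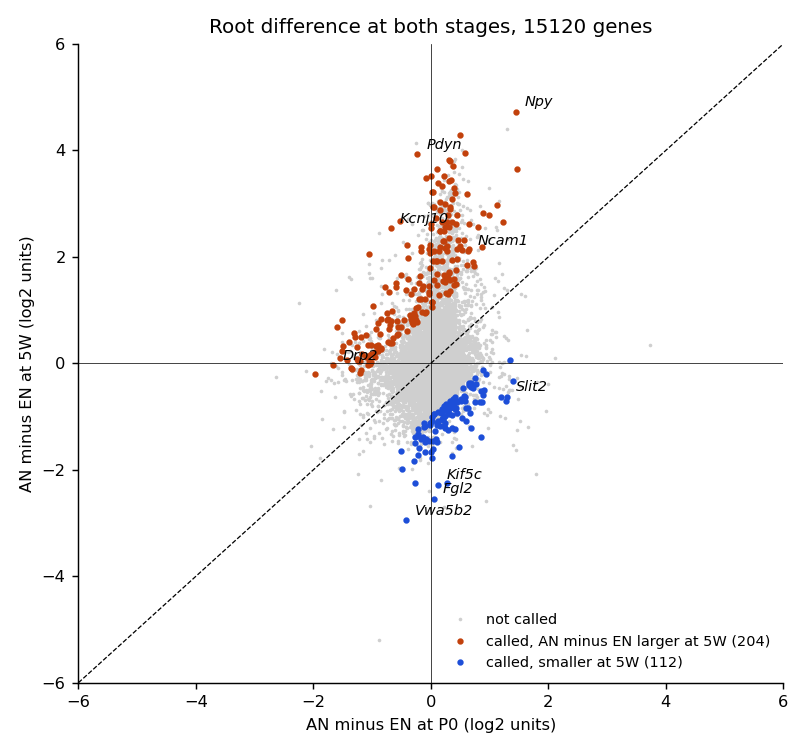
AN minus EN in log2 units at P0 (horizontal axis) and at 5W (vertical axis) for the 15120 genes tested, 1 point per gene, with the dashed line marking an equal difference at both stages. The 204 genes called with a larger difference lie above the line and the 112 called with a smaller one below it, and many of either kind lie near 0 on the P0 axis.

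Kcnj10, the inward rectifier potassium channel by which glia take up potassium, was brightest in the newborn ventral root. At P0 it read 14.35, 13.89 and 14.15 in AN and 14.83, 14.82 and 14.79 in EN, so that EN was the higher root in every pair. At 5W the values were 13.14, 13.45 and 12.75 in AN and 10.44, 10.58 and 10.72 in EN. The order of the roots had turned, since signal fell by 1.02 in AN and fell by 4.24 in EN. The change was 3.22 ± 0.25 (SE, n = 3 pairs per stage, limma adjusted p = 0.0155), a 9.31-fold shift of the ratio. Within slide 3 alone the change was 3.66. The probe lies at chr1:174304062-174304121 in mm9, the build of the array files. In which exon or untranslated region a probe lies was not analysed here.

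Pdyn, the precursor of dynorphin opioid peptides, had a mean of 8.75 ± 1.09 (SD, n = 3) in P0 AN and read 9.54, 9.56 and 7.83 in P0 EN. At 5W it read 9.52, 10.58 and 8.38 in AN but only 5.29, 5.77 and 5.62 in EN, where 2 of 3 arrays were above background. The groups overlapped at P0 and were far apart at 5W, and the change of 4.16 ± 0.74 (adjusted p = 0.0499) was the largest among the called genes measured in all 4 groups. Gpr17, a receptor of oligodendrocyte precursors, read 8.99, 9.16 and 8.44 in P0 AN and 9.19, 8.78 and 7.68 in P0 EN. The 5W arrays gave 10.62, 11.11 and 9.17 in AN and 6.82, 6.59 and 6.04 in EN, and it had risen by 1.44 in AN while it fell by 2.07 in EN. Its change was 3.51 ± 0.41 (adjusted p = 0.0263). Grin3a, a subunit of NMDA receptors, changed by 2.78 ± 0.44 (adjusted p = 0.0411), from 9.11 to 9.98 on the 6 arrays of P0 to 7.15 to 10.10 in 5W AN and 4.84 to 6.00 in 5W EN. Pnma3, a member of the paraneoplastic antigen family, had a small error at a change of 2.90 ± 0.18 (adjusted p = 0.0126). It lay within 8.92 to 9.63 on all 6 arrays of P0.

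The other 7 of the 12 largest increases ran from 2.65 in Rmst, a long non-coding RNA of neural tissue, to 3.58 in Hpcal4, a calcium sensor of neurons. Car10, a carbonic anhydrase-related protein that binds neurexins, changed by 3.33, while its other tested probe gave 0.91 (adjusted p = 0.406). Ecel1, a neuronal endopeptidase, changed by 3.28, while its other tested probe gave -0.69 (adjusted p = 0.357). Tmem163, a zinc transporter of synaptic vesicles, changed by 3.11 and Ttc9b by 3.52. In Car10, Rmst, Tmem163 and Ttc9b only 1 array of 5W EN was above background, so the size of their change leans on dim readings. Cmtm2b stood apart from these, since EN was higher at P0 by 1.05 and AN was higher at 5W by 2.06, a change of 3.11 ± 0.47 (adjusted p = 0.0391). It read 10.20, 9.10 and 10.08 in 5W AN, and replicate 2 was the lowest there and at P0.

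Where no array of 5W EN was well above background, the increase has only a bound. The adjusted p beside a bound, here and below, is that of the change on the readings as they stand. It includes readings below background and does not test the bound. The ratio between the roots grew at least 5.02-fold for Cnr1 (adjusted p = 0.0358), the cannabinoid receptor of nerve endings. It grew at least 4.95-fold for Gad2 (adjusted p = 0.0467), which makes the transmitter GABA in inhibitory neurons, and at least 3.96-fold for Kcnd2 (adjusted p = 0.0343), an A-type potassium channel. A dimmer probe of Gad2 gave 0.58 (adjusted p = 0.408). Hs3st4, a heparan sulphate sulphotransferase, grew at least 3.41-fold (adjusted p = 0.0385), and Cpne4, a copine, at least 3.00-fold (adjusted p = 0.0324). In all 5, replicate 2 was the highest of the 5W AN arrays, at 9.26 for Cnr1 and 9.28 for Gad2, and replicate 3 the lowest, at 6.51 and 6.59.

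**Figure D2:**
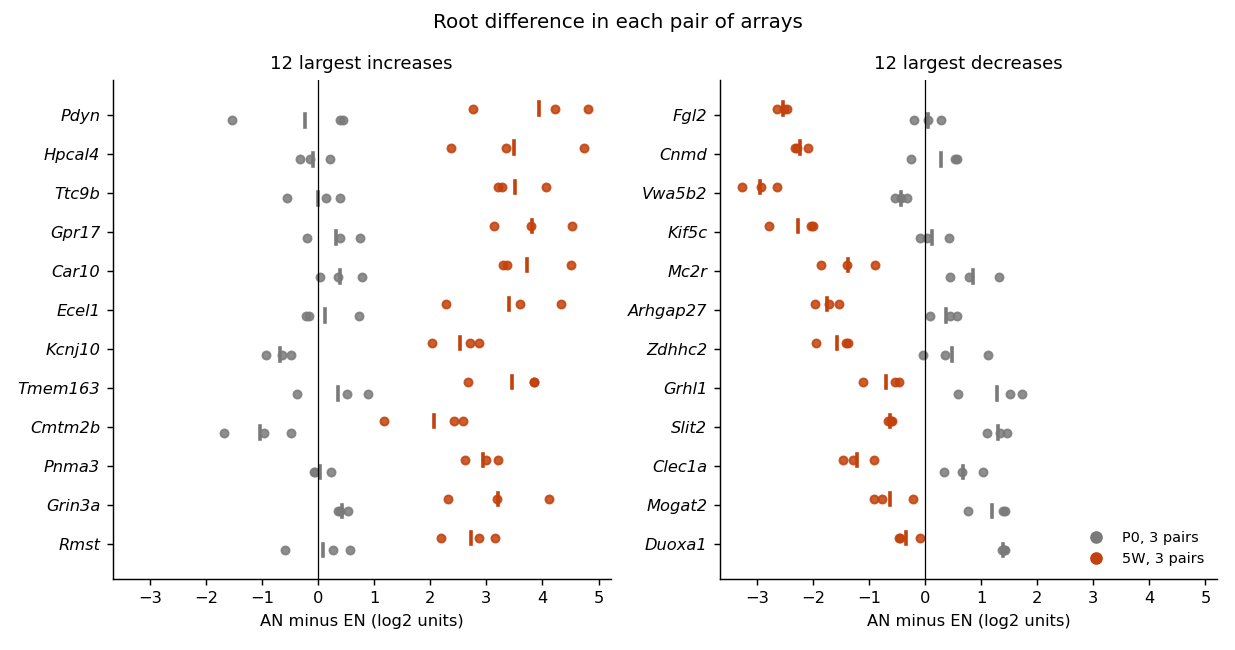
AN minus EN in log2 units for each of the 3 pairs of arrays at P0 (grey) and at 5W (orange), with a bar at the mean, for the 12 largest increases and the 12 largest decreases among called genes measured in all 4 groups. The genes were chosen so that pairs of the 2 stages do not overlap, and for Pdyn the 5W pairs reach from 2.76 to 4.81.

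In 7 of the 12 largest decreases the mean signal in EN was higher at 5W than at P0 by over 1. Fgl2, a fibrinogen-like protein made by immune and endothelial cells, was equally low in both roots at P0, at 6.76, 7.18 and 7.35 in AN and 6.96, 6.89 and 7.30 in EN. By 5W it read 9.01, 9.58 and 8.28 in AN and 11.47, 12.10 and 10.93 in EN. Both roots had risen, AN by 1.85 and EN by 4.45, and the change was -2.59 ± 0.15 (adjusted p = 0.0118). Cnmd, which the files list as Lect1 and which encodes the cartilage glycoprotein chondromodulin, changed by -2.52 ± 0.25 (adjusted p = 0.0209). It went from 7.24 to 8.31 on the 6 arrays of P0 to 10.12 to 11.02 in 5W AN and 12.46 to 13.31 in 5W EN.

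Kif5c, a kinesin heavy chain that carries cargo along axons, moved in opposite directions in the roots. It read 14.22, 14.39 and 13.95 in P0 AN and 14.18, 13.95 and 14.06 in P0 EN, with no gap between them. At 5W it had fallen to 12.80, 12.90 and 12.51 in AN and risen to 14.81, 14.93 and 15.31 in EN. The change was -2.40 ± 0.27 (adjusted p = 0.0243). Vwa5b2 already read slightly lower in AN at P0 (a mean of 10.85 against 11.29, 11.29 and 11.24). By 5W the readings were 8.81, 8.60 and 8.35 in AN and 11.45, 11.53 and 11.61 in EN. Its level in EN moved by 0.25, while AN fell by 2.26, and the change was -2.52 ± 0.18 (adjusted p = 0.0133). A dimmer probe of Vwa5b2 gave the opposite sign, 2.23 (adjusted p = 0.137).

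Slit2, a secreted protein that repels growing axons through Robo receptors, changed the sign of its difference, as the study also reports. It read 11.52, 11.51 and 11.75 in P0 AN and 10.41, 10.05 and 10.41 in P0 EN. At 5W the readings were 12.85, 12.71 and 12.84 in AN and 13.46, 13.31 and 13.52 in EN. AN was higher in all 3 pairs at P0 and lower in all 3 at 5W, a change of -1.93 ± 0.12 (adjusted p = 0.0126), and all 3 tested probes of Slit2 moved the same way, by -1.67 to -2.20, with 1 of them called. Arhgap27, a GTPase-activating protein, turned in the same manner, from 0.37 to -1.75, as did Clec1a, a C-type lectin of endothelium, from 0.68 to -1.22.

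Zdhhc2, a palmitoyltransferase, changed by -2.06 ± 0.33 (adjusted p = 0.0421) and read 11.06 to 11.85 in 5W AN and 12.48 to 13.39 in 5W EN. The remaining decreases were in dimmer genes. Duoxa1, a maturation factor of dual oxidases, was higher in AN at P0 by 1.37, 1.42 and 1.40 in the 3 pairs and changed by -1.73 ± 0.13 (adjusted p = 0.0141) as signal fell in both roots. Mc2r, the receptor for adrenocorticotropic hormone, changed by -2.23 ± 0.32 (adjusted p = 0.0362), Grhl1, an epithelial transcription factor, by -1.97 and Mogat2, an enzyme of triacylglycerol synthesis, by -1.83. The other tested probes of Mc2r and Duoxa1 gave -0.71 (adjusted p = 0.21) and -0.58 (adjusted p = 0.201). In Duoxa1, Mc2r, Grhl1 and Mogat2, 1 or more groups had arrays that were not well above background. Cndp1, Best3 and Panct2 were above background on no array of P0 and on all 3 arrays of 5W EN, at 6.28 to 7.37. Mlph and Slc28a2 were above background on no array of P0 EN and on all arrays of 5W. All 5 were called with a smaller difference at 5W (adjusted p of 0.0118 for Panct2 to just under 0.05 for Mlph), and no fold is given since the dim groups allow none.

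**Figure D3:**
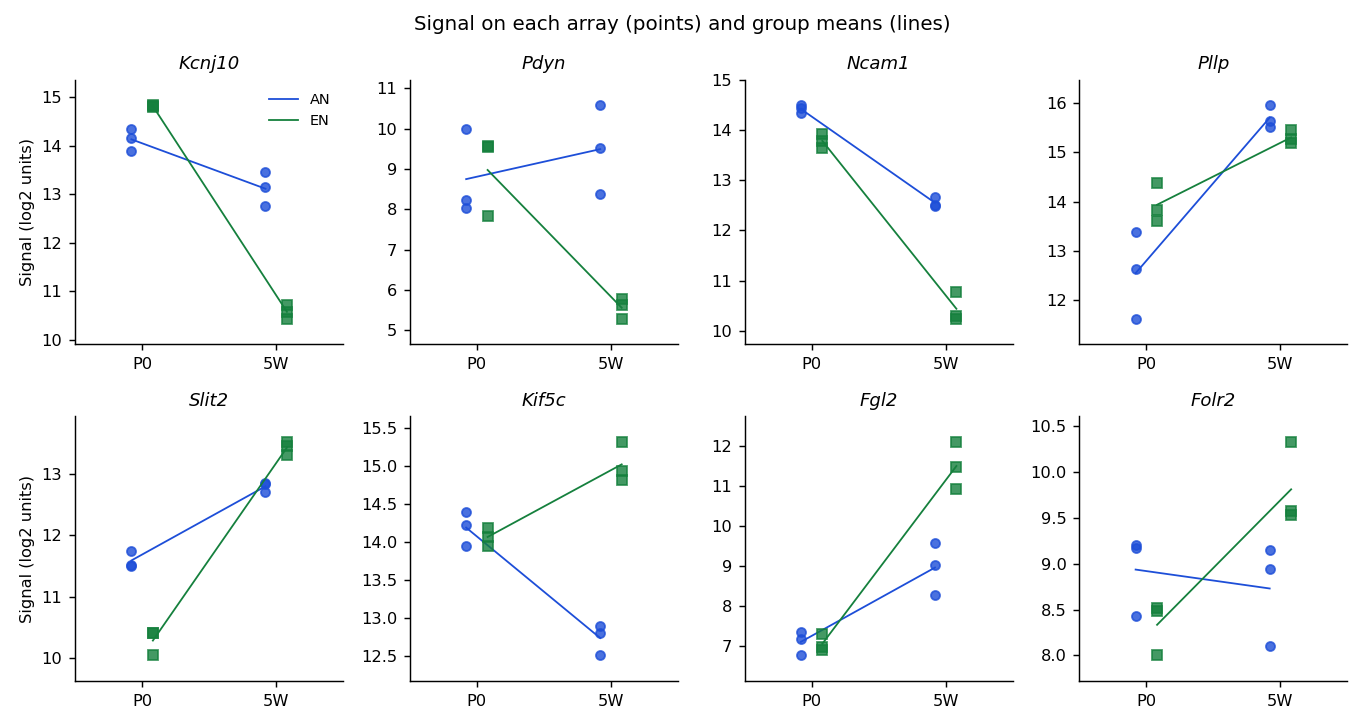
Log2 signal on each array (points) with lines joining the group means at P0 and 5W, for AN (blue circles) and EN (green squares), in 8 of the genes described. In Kcnj10 and Pllp EN is the higher root at P0 and AN at 5W, in Slit2 and Folr2 the order turns the other way, and in Kif5c AN falls by 1.45 while EN rises by 0.95.

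The start regions of 4 of these genes are printed to show the sequence from which genes that moved in opposite directions are transcribed, Kcnj10 and Pllp for the larger and Slit2 and Kif5c for the smaller differences. Pllp, the myelin membrane protein plasmolipin, is described with the myelin genes. Each sequence runs 5′ to 3′ from 250 bases before to 50 bases after the annotated start and comes from RefSeq on GRCm38.p6, another build than that of the probes. The lines stand for chr1:172340960-172341259 on the plus strand, chr8:94696193-94696492 on the minus strand, chr5:47982905-47983204 on the plus strand and chr2:49619036-49619335 on the plus strand. Capitals mark matches on either strand to 4 motifs: the TATA box (TATAAA), the GC box (GGGCGG), the CCAAT box (CCAAT) and the cAMP response element (TGACGTCA). No matches overlapped.
Kcnj10: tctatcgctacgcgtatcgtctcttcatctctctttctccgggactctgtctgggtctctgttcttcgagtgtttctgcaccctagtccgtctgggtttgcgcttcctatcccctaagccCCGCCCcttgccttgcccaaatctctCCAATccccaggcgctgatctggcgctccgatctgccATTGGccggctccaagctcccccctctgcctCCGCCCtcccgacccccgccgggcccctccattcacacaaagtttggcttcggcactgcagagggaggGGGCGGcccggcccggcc
Pllp: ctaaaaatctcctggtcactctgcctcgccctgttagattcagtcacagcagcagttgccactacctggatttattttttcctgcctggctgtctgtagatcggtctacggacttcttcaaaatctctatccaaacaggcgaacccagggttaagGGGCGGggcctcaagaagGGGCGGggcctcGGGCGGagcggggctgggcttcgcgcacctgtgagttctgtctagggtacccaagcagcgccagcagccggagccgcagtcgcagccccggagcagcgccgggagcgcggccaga
Slit2: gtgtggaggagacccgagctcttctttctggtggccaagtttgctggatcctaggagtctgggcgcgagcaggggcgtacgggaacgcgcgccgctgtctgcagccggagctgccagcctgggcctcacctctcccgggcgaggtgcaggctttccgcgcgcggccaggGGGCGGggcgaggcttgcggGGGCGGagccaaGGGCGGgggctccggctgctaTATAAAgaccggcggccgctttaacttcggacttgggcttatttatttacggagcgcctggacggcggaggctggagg
Kif5c: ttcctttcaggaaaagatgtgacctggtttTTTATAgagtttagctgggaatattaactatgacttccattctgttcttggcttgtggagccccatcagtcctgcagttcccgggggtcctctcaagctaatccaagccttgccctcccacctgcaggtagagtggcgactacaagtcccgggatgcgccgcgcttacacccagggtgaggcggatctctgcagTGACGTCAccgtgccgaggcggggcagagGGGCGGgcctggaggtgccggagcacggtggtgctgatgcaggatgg
Kcnj10 and Slit2 had 3 GC boxes each, as had Pllp, and Kif5c had 1. Slit2 held a TATA box that began 28 bases before the start, and Kif5c held the 1 cAMP response element among the 4, at 26 bases before it. A start region was matched for 11951 of the 15120 tested genes and for 231 of the 316 called ones. Of all 32851 mouse start regions in the table, 13.6% held a TATA box, 35.7% a GC box, 37.4% a CCAAT box and 1.79% a cAMP response element. Among tested genes the shares were 10.6%, 63.6%, 42.4% and 3.31%. The 147 matched genes with a larger difference had 8.84%, 55.8%, 44.2% and 2.04%, and the 84 with a smaller difference 17.9%, 54.8%, 41.7% and 3.57%. A match is a description of the letters and not a site of binding.

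Peripheral myelin genes were lower in the dorsal root at P0 and about level between the roots at 5W. At P0 the 30 tested genes had a median AN minus EN of -0.58, with -0.48, -0.80 and -0.44 in the 3 pairs. At 5W the median was 0.16 and the pairs gave 0.05, 0.10 and 0.21. AN minus EN was higher at 5W in 28 of the 30 genes, against 48.6% of all genes. Of the 30, 9 were called larger, against 1.35% of all genes, and 1 smaller. In 26 of the 30 the pairs did not overlap between the stages, against 37.4% of all genes. The median change was 0.78, and it was 0.63 to 0.86 under every alternative run.

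Among the called myelin genes, Drp2, which anchors the myelin membrane to the basal lamina, read 10.03, 8.89 and 9.37 in P0 AN and 11.71, 10.63 and 10.92 in P0 EN. At 5W the readings were 15.54, 16.07 and 15.63 in AN and 15.77, 16.09 and 15.49 in EN. The gap of -1.66 at P0 had closed to -0.04, a change of 1.62 ± 0.13 (adjusted p = 0.0166), and all 4 tested probes of Drp2 moved the same way. Pllp read 13.39, 11.63 and 12.63 in P0 AN and 14.38, 13.61 and 13.82 in P0 EN, then 15.95, 15.64 and 15.51 in 5W AN and 15.45, 15.27 and 15.18 in 5W EN. Its order turned, with a change of 1.78 ± 0.27 (adjusted p = 0.0387). Mbp, the myelin basic protein, went from 12.66 to 13.42 in P0 AN and 14.04 to 14.39 in P0 EN to 16.67 to 17.13 on all 6 arrays of 5W, a change of 1.29 (adjusted p = 0.0412). Ncmap, a protein of non-compact myelin, changed by 1.57, Nfasc, the neurofascin of nodes and paranodes, by 1.34, Cnp, an enzyme of uncompacted myelin, by 1.27, and Fa2h, which hydroxylates the fatty acids of myelin lipids, by 1.20. Only 1 of the 4 tested probes of Nfasc was called, and they ranged from -0.10 to 1.34.

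The remaining called members followed other courses. Pou3f1, a transcription factor of promyelinating Schwann cells, was almost level at P0 (14.85, 13.63 and 14.36 in AN against 15.02, 14.31 and 14.66 in EN) and fell more in EN. It read 14.06, 12.60 and 13.35 in 5W AN and 12.56, 11.18 and 11.50 in 5W EN, a change of 1.97 ± 0.19 (adjusted p = 0.0209). Gjc3, a connexin of myelinating glia, stayed level in AN and fell by 1.71 in EN, a change of 1.67 (adjusted p = 0.0337). Cldn14, a tight junction claudin, was the 1 member that went the other way, from near equality (0.07) to -1.28, as it rose by 2.84 in AN and 4.18 in EN. Among bright members that did not pass, Pmp22 gave 0.62 ± 0.16 (adjusted p = 0.0939) and Prx, which encodes periaxin, 0.40 ± 0.13 (adjusted p = 0.135).

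Genes of sterol synthesis and uptake, which supply the cholesterol of myelin, showed a smaller shift of the same sign, with no gene called. At P0 they were lower in AN with a median of -0.80 (pairs -0.88, -0.79 and -0.75), and at 5W with a median of -0.31 (pairs -0.22, -0.41 and -0.30). AN minus EN was higher at 5W in 23 of 24 genes with a median change of 0.47. No gene was called, since those with an adjusted p below 0.05, Hmgcs1, Cyp51 and Idi1 among them, had a change under 1. Hmgcs1, an early enzyme of the pathway, changed by 0.68 ± 0.09 (adjusted p = 0.0324).

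Genes of immature Schwann cells and of Schwann cells without myelin parted between the roots. Their 18 tested members had a median AN minus EN of 0.26 at P0 and 1.12 at 5W, with 0.17, 0.46 and 0.35 in the P0 pairs and 1.30, 1.19 and 0.87 in the 5W pairs. AN minus EN was higher at 5W in 15, against 48.6% of all genes, and 6 were called larger, against 1.35%, and none smaller. Ncam1, an adhesion molecule kept by Schwann cells that do not myelinate, read 14.34, 14.50 and 14.44 in P0 AN and 13.65, 13.93 and 13.79 in P0 EN. The 5W arrays gave 12.49 to 12.67 in AN and 10.29, 10.24 and 10.78 in EN. The gap widened from 0.64 to 2.12, a change of 1.48 ± 0.13 (adjusted p = 0.0184), and all 5 tested probes of Ncam1 were called, at 1.45 to 2.23.

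Pax3, a transcription factor of early Schwann cells, read 9.88, 10.07 and 10.32 in P0 AN, 8.85, 9.24 and 9.23 in P0 EN, 8.08, 8.38 and 7.96 in 5W AN and 5.08, 6.07 and 4.87 in 5W EN. It changed by 1.81 ± 0.23 (adjusted p = 0.0302). Sox2, another factor of the immature state, changed by 1.19 ± 0.14 (adjusted p = 0.0254), Erbb3, the neuregulin receptor of Schwann cells, by 1.14 ± 0.11 (adjusted p = 0.0218) and Id2, an inhibitor of differentiation, by 1.13 ± 0.10 (adjusted p = 0.0166). Fabp7, a fatty acid binding protein of immature Schwann cells that astrocytes and satellite glia also express, changed by 1.76 ± 0.30 (adjusted p = 0.046). In these 5 genes AN kept more signal than EN at 5W in every pair. Members that did not pass include Gap43, a growth-associated protein, at 1.61 (adjusted p = 0.242), Gfap, an intermediate filament of glia, at 1.59 (adjusted p = 0.085), and Ngfr, the p75 neurotrophin receptor, at -0.30 (adjusted p = 0.638).

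**Figure D4:**
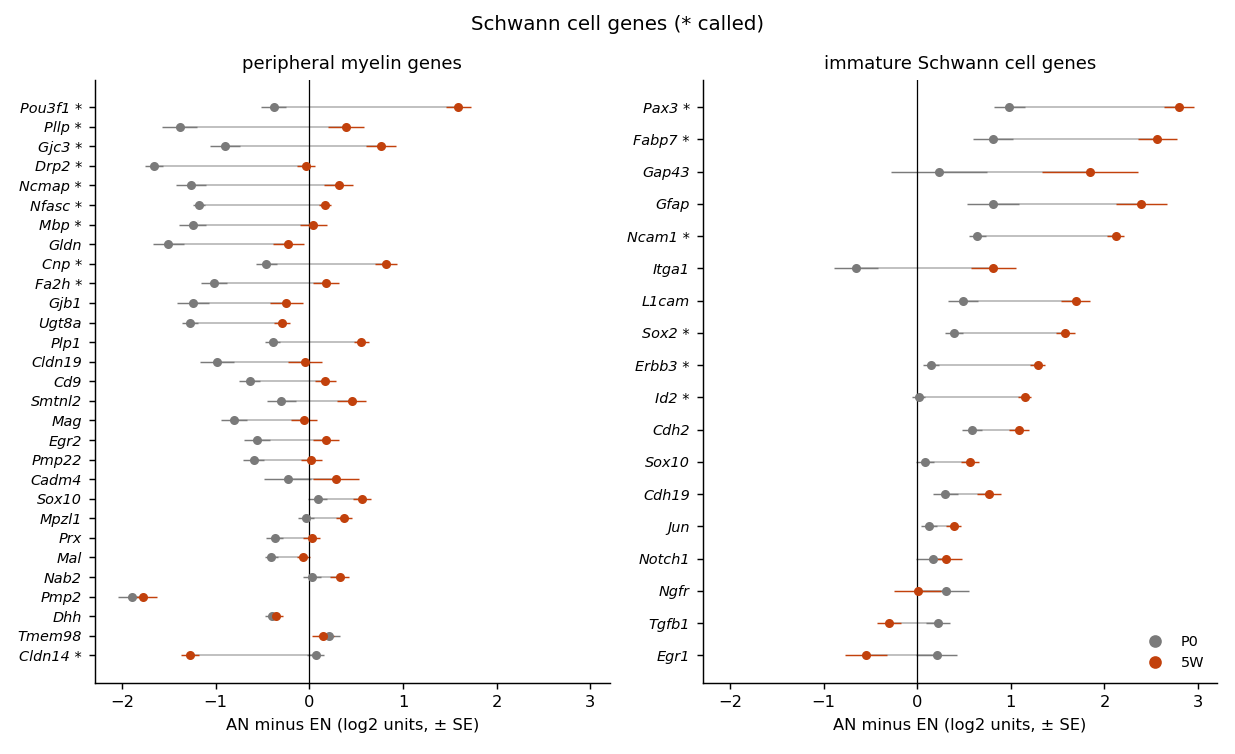
AN minus EN at P0 (grey) and 5W (orange) in log2 units with its standard error, for 29 of the 30 tested peripheral myelin genes and the 18 tested immature Schwann cell genes, with an asterisk for called genes. Myelin genes move from the left of 0 to near it, as in Drp2 from -1.66 to -0.04, while the called immature genes move to the right, as in Ncam1 from 0.64 to 2.12.

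Potassium channel genes set the resting state and firing of axons and the potassium balance of glia. Of 42 tested, 9 were called larger, against 1.35% of all genes, and 1 smaller, against 0.741%. The median change was 0.47, and 0.37 to 1.13 under the alternatives. Kcna1, an axonal channel of the juxtaparanode, read 14.01, 12.91 and 13.51 in P0 AN and 14.45, 13.97 and 14.23 in P0 EN, then 16.24, 15.70 and 16.22 in 5W AN and 15.53, 15.00 and 15.22 in 5W EN. It turned from higher in EN to higher in AN, a change of 1.54 ± 0.19 (adjusted p = 0.0284), and its partner Kcna2 changed by 1.41 (adjusted p = 0.0358). Kcnk1, a tandem pore leak channel, turned in the same way from -1.31 to 0.56 while it rose by 5.47 in AN and 3.60 in EN. Kcna6 kept its level in AN (14.55 to 15.23 over both stages) and fell by 1.85 in EN, a change of 1.70 ± 0.11 (adjusted p = 0.0133). Kcnn2, a calcium-activated channel, changed by 2.63 and Kcnh8 by 1.07, but the other tested probe of Kcnn2 gave 0.07 (adjusted p = 0.806). For Kcnk10, which 5W EN did not show above background, the ratio grew at least 2.34-fold (adjusted p = 0.0456). Kcns3, a modulatory subunit, was the 1 called smaller, at -1.37 (adjusted p = 0.0494). Of 12 sodium channel subunits only Scn7a was called, which responds to sodium in glia and neurons. It read 8.91, 9.07 and 10.35 in 5W AN and 6.53, 7.36 and 7.88 in 5W EN, up in both roots since P0, and changed by 2.02 ± 0.24 (adjusted p = 0.0267). None of 19 calcium channel subunits was called.

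Guidance and adhesion genes held members of either direction. The counts below stand beside 1.35% of all genes called larger and 0.741% called smaller. Of 31 semaphorins and their receptors 3 were called larger and 1 smaller. Sema3f, a secreted repellent, read 11.82, 11.36 and 11.91 in 5W AN and 10.02, 9.38 and 9.93 in 5W EN after a level start at P0, and changed by 1.83 ± 0.15 (adjusted p = 0.0166) with both of its probes called. Sema4d changed by 1.58 and Sema3e by 1.51, whereas Sema3g, which rose by 1.87 in AN and 2.92 in EN, changed by -1.05 (adjusted p = 0.0221). Sema4d had another probe at -0.01. Of 10 Slit and Robo genes, the ligands Slit2 and Slit3 were called smaller and no receptor was called. Slit3 turned from 0.72 to -0.45, a change of -1.17 ± 0.12 (adjusted p = 0.022). Of 31 ephrins, netrins and their receptors, the receptors Epha5 (1.72, adjusted p = 0.0141) and Ephb2 (1.42, adjusted p = 0.0216) were called larger, and the other tested probe of Ephb2 gave -0.41.

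Among 60 genes of Notch, Wnt and Tgfb signalling 2 were called, both larger. Of all genes 1.35% were called larger, a share that also stands beside the counts below. Wnt7a, a secreted Wnt ligand, was not above background in 5W EN and its ratio grew at least 2.61-fold (adjusted p = 0.0118). Sfrp5, a secreted Wnt inhibitor, was bright and rose in both roots, at 16.40, 16.37 and 16.85 in 5W AN and 15.40, 15.54 and 15.99 in 5W EN. It had been slightly higher in EN at P0 and changed by 1.17 ± 0.13 (adjusted p = 0.0248). Of 15 neurexins, neuroligins and their partners, which join the membranes of synapses, 3 were called larger. Lrrtm1, a postsynaptic ligand of neurexins, changed by 1.97 ± 0.13 (adjusted p = 0.0133), Lrrtm4 by 1.31 and Cbln2, a secreted neurexin ligand, by at least 3.35-fold in its ratio. Sytl3, a Rab27 effector of vesicle traffic, was the 1 call among 53 SNARE and vesicle genes. It read 10.60, 10.71 and 10.63 in 5W AN and 6.97, 7.01 and 6.99 in 5W EN, and the gap widened from 1.46 at P0 to 3.66, a change of 2.20 ± 0.11 (adjusted p = 0.0118). Of its 4 tested probes 2 were called and 1 gave -0.33.

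Genes of central glia and neurons moved with these results. Their lists stand for tissue of the cord that a root could carry. AN minus EN was higher at 5W in 23 of 25 astrocyte genes, against 48.6% of all genes, with 6 called larger, against 1.35%, and a median change of 1.54 (1.13 to 1.98 under the alternatives). It was higher in all 22 oligodendrocyte genes, with 4 called larger and a median of 1.03. Of 23 genes of central neurons it was higher in 20, with 1 called larger and a median of 0.80 (0.67 to 1.58 under the alternatives). Mlc1, a membrane protein of astrocyte endfeet, read 12.22, 12.77 and 11.23 in 5W AN and 9.15, 9.34 and 9.34 in 5W EN, and changed by 2.50 ± 0.43 (adjusted p = 0.0469). Acsbg1, an acyl-CoA synthetase of astrocytes, changed by 1.95 ± 0.21 (adjusted p = 0.0229) and Aqp4, the water channel of endfeet, by 2.19 ± 0.36 (adjusted p = 0.0427), although 1 of its 3 probes gave -0.53. Bmpr1b, a receptor for bone morphogenetic proteins, changed by 1.54. Aldh1l1, a bright member of the astrocyte list, went the other way at -0.26 (adjusted p = 0.405). It was lower in AN in all 3 pairs of 5W, by -0.25, -0.41 and -0.36. Gpr37, a receptor of oligodendrocytes, changed by 2.62 ± 0.19 (adjusted p = 0.0133) and Nkx6-2, a transcription factor of the same cells, by 1.72. Some of these genes are also made by Schwann cells, Fa2h and Fabp7 among them.

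The levels of these lists varied between arrays. A summed signal follows the brightest genes of its list, which other cells may also make, so it does not measure the amount of such tissue. The summed signal of the astrocyte genes was 62950 to 76676 in P0 AN, 51994 to 63521 in P0 EN, 83765 to 171376 in 5W AN and 57222 to 73199 in 5W EN, where 2 of the 25 genes were above background on no array. That of the oligodendrocyte genes was 114534 to 148814 in P0 AN, 144238 to 177425 in P0 EN, 346417 to 393490 in 5W AN and 265977 to 321190 in 5W EN. Signal of the central neuron genes was 110668 to 138849 in P0 AN, 94708 to 124105 in P0 EN, 48879 to 122086 in 5W AN and 25584 to 43121 in 5W EN, where 5 of the 23 genes were above background on no array. Of these Calb1, a calcium-binding protein, and Slc6a5, the glycine transporter of inhibitory neurons, were above background on all arrays of the other groups. Replicate 2 was the highest of the 5W AN arrays in all 3 lists, and it was also the highest for Pdyn, Hpcal4, Gpr17, Ecel1 and Grin3a. The part of such tissue in the larger differences of neuronal and glial genes was not tested.

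Sensory neuropeptides had a median change of 1.51 over 17 tested genes, which was 0.82 to 3.54 under the alternatives. Of the 17, 2 were called larger, Pdyn and Npy, against 1.35% of all genes. Npy, neuropeptide Y, was already higher in AN at P0, at 10.21, 9.35 and 9.56 against 8.49, 8.23 and 8.07. At 5W it read 7.83, 9.21 and 6.53 in AN and was not above background in EN, and its ratio grew at least 2.58-fold (adjusted p = 0.0358). Pdyn and Npy did not follow Calca over the arrays. Both were highest on replicate 2 of 5W AN, and their pair 3 differences were 2.76 and 3.86, against -1.77 in Calca. Others did not pass: Sst, somatostatin, gave 3.26 ± 0.70 (adjusted p = 0.0671), Penk, the enkephalin precursor, 3.00 ± 0.63 (adjusted p = 0.065) and Calca 1.17 ± 1.64 (adjusted p = 0.693). The summed signal of the list was 29005, 49379 and 7879 in 5W AN and 4416, 6273 and 7088 in 5W EN, so the array labelled 5W AN replicate 3 was close to the EN arrays. Its median pair difference was 0.07, against 3.20 and 3.19 in the other pairs. No gene was called among 27 nociceptor channels and receptors, 21 genes of proprioceptors and mechanoreceptors or 12 neurotrophic factor receptors. Prdm8, a repressor of transcription, was the 1 call among 15 sensory neuron transcription factors, at a ratio grown at least 3.96-fold (adjusted p = 0.0494).

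Receptors for transmitters had a larger difference at 5W in 12 of 15 GABAA receptor subunits and in 10 of 12 ionotropic glutamate receptor subunits, against 48.6% of all genes. In 5W EN, 7 of the 15 GABAA subunits were above background on no array. Their median change was 1.04 over all 15 and 0.40 over the 8 measured in all groups. Over all genes 1.35% were called larger and 0.741% smaller. Of 15 subunits of GABAA receptors Gabra3 was called, at 9.42, 10.62 and 9.96 in 5W AN against 7.90, 9.01 and 8.67 in 5W EN, with a change of 1.36 ± 0.21 (adjusted p = 0.0385). Gria4, an AMPA receptor subunit, changed by 2.18 ± 0.20 (adjusted p = 0.0209) with all 3 of its probes called, and with Grin3a made 2 of 12 ionotropic glutamate receptor subunits called larger. The 20 genes of motor neurons had 1 call in each direction, Cpne4 and Slit3, and a median of -0.01. Uts2, the urotensin peptide of motor neurons, is added here after its values were seen, because it lay just outside the threshold. It read 5.55 on average in 5W AN and 10.74 in 5W EN, up from 7.57 in P0 EN, and its change was -4.32 ± 0.80 (adjusted p = 0.0519).

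Genes of macrophages and of matrix moved the other way. All but 3 of 27 macrophage genes had a smaller AN minus EN at 5W, with a median change of -0.62, and 4 were called smaller (0.741% of all genes were) and none larger. Folr2, a folate receptor of resident macrophages, read 8.43, 9.17 and 9.21 in P0 AN and 8.00, 8.52 and 8.48 in P0 EN. At 5W it read 9.15, 8.10 and 8.94 in AN and 10.33, 9.58 and 9.53 in EN, so the order turned with a change of -1.68 ± 0.24 (adjusted p = 0.0362). Lyve1, a hyaluronan receptor of resident macrophages and lymphatic vessels, turned in all pairs too, with a change of -1.23 (adjusted p = 0.0356). Cbr2, a carbonyl reductase of macrophages, changed by -1.24 (adjusted p = 0.0467) and P2ry12, a purine receptor of microglia and macrophages, by -1.0 (adjusted p = 0.0475). The bright members Csf1r, the growth factor receptor of macrophages, and Lyz2, a lysozyme, gave -0.62 and -0.58 and did not pass. Nor did Itgam, an integrin of myeloid cells and as bright, which went the other way at 0.84 (adjusted p = 0.0671). The summed signal of the list was 50507 to 61045 in P0 AN, 50590 to 59771 in P0 EN, 130790 to 148451 in 5W AN and 172538 to 187267 in 5W EN.

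Collagen chains showed 3 calls among 40 genes, all smaller. Of all genes 0.741% were called smaller and 1.35% larger, and these shares also stand beside the counts below. Col4a6 and Col4a4, chains of basement membrane collagen, turned from 0.88 to -0.59 and from 0.90 to -0.49, with changes of -1.47 ± 0.19 (adjusted p = 0.0302) and -1.39 ± 0.15 (adjusted p = 0.0225). Col23a1, a transmembrane collagen, changed by -1.22 (adjusted p = 0.0391). Of 29 genes of the leptomeninges 2 were called in each direction, and 22 had a smaller difference at 5W. Slc6a20a, a proline transporter, and Twist1, a mesenchymal transcription factor, changed by -1.22 and -1.0, and Prg4, lubricin, and Nnat, neuronatin, by 2.27 and 1.52. Fbln5, an elastic fibre protein on the list of satellite glial genes, changed by -1.02 ± 0.12 (adjusted p = 0.0266), while Kcnj10, Ptprz1 (1.96), Fabp7 and Ednrb (1.04) on that list were called larger. Mfsd2a, a lipid transporter, was the 1 call among 31 endothelial and pericyte genes, at 1.26, whereas the median of that list was -0.50.

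**Figure D5:**
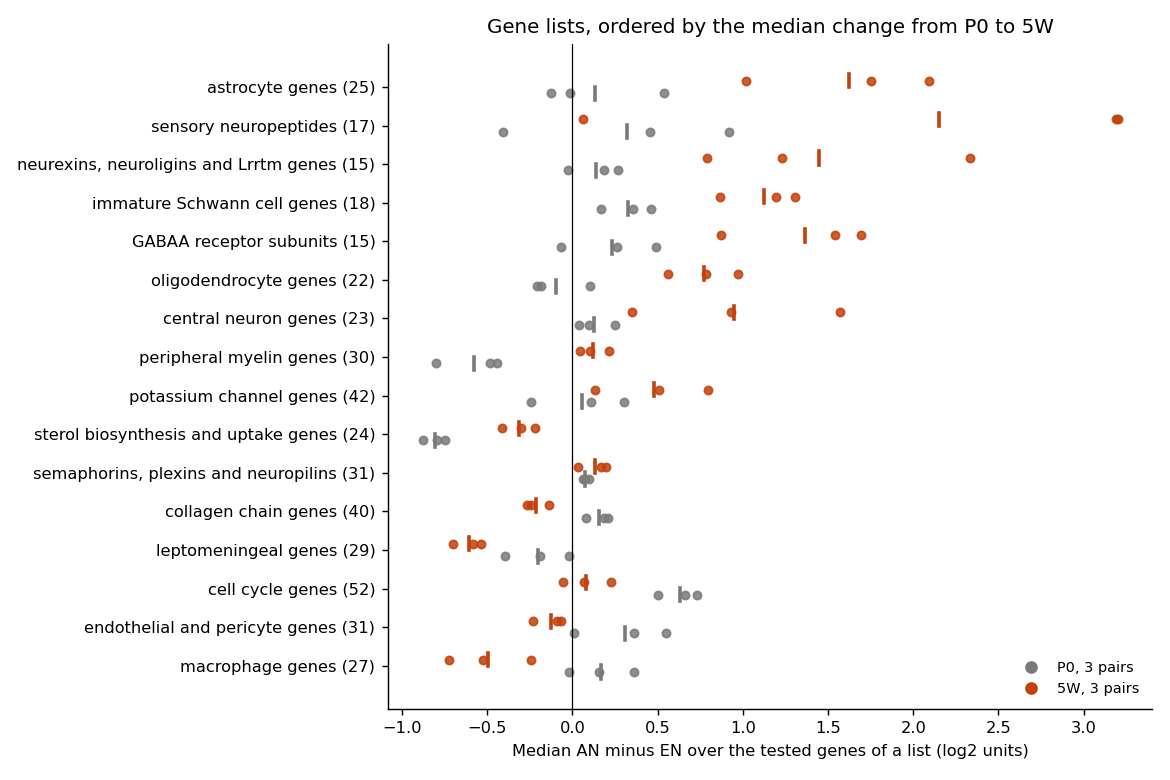
Median AN minus EN in log2 units over the tested genes of each list (number of genes in brackets) in the 3 pairs at P0 (grey) and at 5W (orange), with a bar at their mean and the lists in order of the median change. With the pairs of a stage averaged first, the median goes from 0.15 to 1.52 for astrocyte genes, from 0.26 to 1.12 for immature Schwann cell genes, from -0.58 to 0.16 for peripheral myelin genes and from 0.17 to -0.52 for macrophage genes.

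Cell cycle genes had lower signal at 5W in both roots, with a median move of -3.39 in AN and -2.75 in EN, and the median of their difference between roots was closer to 0. They were higher in AN at P0 with a median of 0.64 (pairs 0.50, 0.66 and 0.73), and at 5W the median was 0.12 (pairs 0.23, 0.07 and -0.05). AN minus EN was lower at 5W in 48 of 52 genes, with a median change of -0.50. E2f8, a transcription factor of S phase, was called, at 10.24, 10.22 and 10.55 in P0 AN, 9.75, 9.70 and 9.79 in P0 EN, 7.59, 6.57 and 7.09 in 5W AN and 8.49, 7.63 and 7.67 in 5W EN. Its change was -1.44 ± 0.16 (adjusted p = 0.0243), and another probe gave -0.28. Lists of other tissues had few or no calls, beside 1.35% of all genes called larger and 0.741% called smaller. Skeletal muscle genes, none of 30 called, had a median change of 1.10, and 0.41 to 1.71 under the alternatives. Their mean was 12.09 on P0 EN replicate 2 against 10.54 and 10.53 on the other P0 EN arrays, and 10.66 on 5W AN replicate 1 against 8.10 and 7.92. The 1 call among 18 adipocyte genes was Slc36a2, an amino acid transporter (1.73), and among 20 perineurial genes Hhip, a hedgehog inhibitor (1.59), both larger. Single smaller calls were Sema3g among 12 boundary cap genes, Cnmd among 13 cartilage and bone genes and Kif5c among 27 genes of the axonal cytoskeleton, and 13 melanocyte genes held Ednrb and Mlph in opposite directions. No gene was called among 27 immediate early and injury genes, 15 genes of proteoglycans and endoneurial fibroblasts, 13 erythroid, 23 T, B and neutrophil, 10 mast cell, 29 Hox, 27 interferon-stimulated or 21 MHC genes.

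The study names 21 genes from these arrays, and they were chosen there on these samples. Of these 5 were called here: Gabra3, Ncam1 and Npy with a larger difference and Slit2 and Slit3 with a smaller one. The other 16 did not pass by their brightest probe. The study compared the roots within a stage or the stages within a root, states no adjustment of its p-values, and checked several genes by RT-qPCR. It reports no test of a change in the root difference, so these counts do not bear on its comparisons within a stage or a root. For Slit2 it does report a turn of the order. By RT-qPCR it found Slit2 significantly higher in AN than in EN at P0, with the order turned later. Its discussion gives Slit2 as significantly higher in EN at 5W. The change of Slit2 here had the same direction, with AN minus EN of 1.30 at P0 and -0.63 at 5W, on the arrays of the study itself. A dimmer probe of Gabra4 was called larger (adjusted p = 0.0385), while its brightest gave 0.53 (adjusted p = 0.509). Nlgn1, a neuroligin, gave 1.49 ± 0.39 (adjusted p = 0.0957), and Gabrb2 gave -0.60 ± 0.50 (adjusted p = 0.506). Unc13c, a vesicle priming protein, gave -0.24 (adjusted p = 0.622), with AN higher by 1.54 at P0 and 1.31 at 5W.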

How the data were processed

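Gene expression was measured in total RNA of nerve roots of mice on Agilent SurePrint G3 arrays with 1 Cyanine-3 labelled sample each. Per the labels, spots were read with Agilent Feature Extraction 10.7.1.1. The authors deposited a table of log2 values for all arrays, which their methods describe as quantile normalized, and this table was used for all main values. It held 56743 probes, and 0 columns of other series were left out. The authors also deposited the fluorescence intensity of each spot, which gave the marks of signal well above background, the gene names, the probe positions in mm9 and the alternatives. The fold changes and p-values of the study were not used.

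AN and EN were paired by replicate number within a stage. This pairing was checked: deviations from the group means correlated at 0.445 to 0.5945 in the 6 pairs of the same number and at -0.40 to -0.03 in the others. The deviations within a group balance out, so the negative values follow in part from the positive ones. AN and EN of a number also shared a slide and a scan day, so the check cannot tell shared animals from a shared batch. Limma 3.58.1 in R 4.3.3 (lmFit, eBayes) was run on the 12 arrays with the pair as a fixed block, with 4 residual and 5.80 total degrees of freedom. Levels of 5W against P0 within a root were compared on group means. The precision is limited by 3 arrays in a group. Self-tests of the fit on simulated data were run after the main fit.

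A group below background on all 3 arrays has only a bound, set from the lowest signal among probes well above background on each array. The bound has no error or test of its own. Named genes were the 12 largest changes in each direction among called genes, the 5 largest with a group below background, the 21 genes the study names, and in each of 44 gene lists up to 6 called genes and the 3 brightest. Members and lists were chosen with earlier results of these data known, and no list was tested as a set. The 12 arrays of 1W and 3W entered only alternatives fitted on all 24 arrays and the closing observations. Figures were drawn with matplotlib 3.10.9. Some genes that the rule names are not reported here, but they count in all totals.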

Additional observations from a re-analysis of the deposited data

Results flagged for a closer look

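For the whole comparison, 598 probes had a difference between the roots that differed between P0 and 5W by limma's interaction term, and that count is flagged as such. The genes given next were flagged because all 3 pairs of AN and EN pointed one way at P0 and the other way at 5W, and limma called the change. That was so for 74 of the 204 genes called larger and 63 of the 112 called smaller, and only some of them are listed. Of all 15120 genes, called or not, 1345 had opposite signs in all pairs. The flag follows from the same pairs as the call and adds no further evidence.

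Among genes with AN lower at P0 and higher at 5W, the changes were 3.22 for Kcnj10, 3.11 for Cmtm2b, 2.62 for Gpr37, 1.97 for Pou3f1, 1.87 for Kcnk1, 1.78 for Pllp, 1.73 for Slc36a2, 1.67 for Gjc3, 1.59 for Hhip, 1.57 for Ncmap and 1.54 for Kcna1. Smaller changes of this kind were 1.34 for Nfasc, 1.31 for Lrrtm4, 1.26 for Mfsd2a, 1.20 for Fa2h and 1.17 for Sfrp5. Among genes with AN higher at P0 and lower at 5W, the changes were -2.23 for Mc2r, -2.11 for Arhgap27, -1.97 for Grhl1, -1.93 for Slit2, -1.90 for Clec1a, -1.83 for Mogat2, -1.73 for Duoxa1, -1.68 for Folr2 and -1.57 for Slc28a2. The others listed were -1.47 for Col4a6, -1.44 for E2f8, -1.39 for Col4a4, -1.23 for Lyve1, -1.22 for Col23a1, -1.17 for Slit3, -1.05 for Sema3g and -1.02 for Fbln5. Mc2r, Grhl1, Mogat2, Duoxa1 and Slc28a2 had groups in which not every array was well above background.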

How the results depend on the processing

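Against 598 called probes, 606 were called with the scanner signal quantile normalized, 634 with the 75th percentile, 436 with normexp, 547 among probes above background on all 12 arrays and 404 with 1 probe per gene. The count was 50 with no filter on dim probes, 1358 with the pair as a random block and 1789 with an unadjusted p. With no replicate block it was 45 on 12 arrays and 355 on all 24 arrays, and with the replicate block on all 24 arrays it was 992. It was 0 with the slide as a block, where 3301 passed unadjusted, and 0 with the scan day as a block, an alternative chosen after seeing the data, where 2345 passed unadjusted. Leaving out 1 pair gave 0 to 838. The causes were not tested. Each of the 598 kept its sign wherever it was tested, apart from 1 under normexp. In fits on the deposited log2 values the sign of these probes could not turn, since their pairs did not overlap between the stages. None of the 95 named and called genes changed sign, and 0 to 95 of them were called again, depending on the alternative. Medians of 10 gene lists changed sign under at least 1 alternative. Signals near background limit the size of large increases, and 3 arrays per group limit the rest.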

Other observations

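The 12 arrays of 1W and 3W, which of the fits above entered only those on all 24 arrays, give the steps between the newborn and the 5W values. In the order of age, AN minus EN for Kcnj10 went from -0.68 through 0.68 and 1.83 to 2.54. For Pdyn it was -0.23, 1.73, 3.43 and 3.93, and for Ncam1 0.64, 0.89, 1.88 and 2.12. Pllp went from -1.39 through -0.13 and 0.10 to 0.39, and Drp2 from -1.66 through -0.70 and -0.54 to -0.04. These 5 genes moved in one direction at each step. Gpr17 did not, at 0.31, 3.14, 1.76 and 3.82.

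Among decreases, Fgl2 gave 0.05, -0.75, -2.61 and -2.54, Kif5c 0.12, -0.95, -2.01 and -2.28, and Folr2 0.60, -0.15, -0.37 and -1.08. Slit2 had already changed sign at 1W, at 1.30, -0.43, -0.96 and -0.63, and Slit3 was lowest at 3W, at 0.72, 0.13, -0.90 and -0.45. Zdhhc2 stood apart, with AN higher by 2.28 at 1W between 0.48 at P0 and -1.12 at 3W, and -1.57 at 5W. The median over cell cycle genes was 0.64, 0.40, 0.44 and 0.12. No test was made of these steps.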
